A study of Homo sapiens with 6 samples.

Results

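*ATG13*, *AMBRA1*, *RB1CC1*, *ATG14*, *HTT* and *EPG5* encode proteins that start autophagosome formation or bring the finished vesicle to the lysosome. The 6 genes were taken by their symbols in the platform annotation, from a table of 14812 named genes. Each was represented by 1 probe set, so no choice between probe sets had to be made. Their log2 signals were compared between UM-Cis, a cisplatin-resistant oral squamous carcinoma line, and UMSCC1, the established line it was derived from. UM-Cis had been selected from UMSCC1 over about 12 months in cisplatin raised stepwise from 1 to 5 μg/ml. Both lines were grown without cisplatin before total RNA was taken, and UM-Cis is a single resistant derivative. The study also kept vehicle-treated parental cells in parallel during the selection. Its array methods do not state whether the UMSCC1 cells on the arrays were these. Each line was measured on 3 Affymetrix Human Gene 2.0 ST arrays, which carry the labels no number, 1 and 2. No source used here says that the arrays came from separate cultures, so each p-value reflects only the scatter of these arrays, part or all of which may be technical.

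Autophagy encloses cytoplasm in a double membrane and delivers it to lysosomes, and it is one of the ways in which cells live through nutrient loss or drug stress. The ULK1 kinase complex, which contains *ATG13* and the scaffold *RB1CC1* (FIP200), is activated when the kinase mTOR is shut off. It then recruits the class III PI3-kinase complex, whose *ATG14* subunit places it at the endoplasmic reticulum. *AMBRA1* links these complexes and also serves as a substrate receptor of the CUL4 ubiquitin ligase. *HTT*, huntingtin, is a large scaffold for vesicle transport and selective autophagy. *EPG5* is a tether that joins autophagosomes to late endosomes and lysosomes.

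The promoter windows bear on the members because *ATG13* and *AMBRA1* lie close together on the short arm of chromosome 11. The study also placed primers of its chromatin accessibility assay at *ATG13*. In the RefSeq annotation of GRCh38.p14, *AMBRA1* covers chr11:46396412-46594023 on the minus strand and *ATG13* covers chr11:46617553-46674518 on the plus strand. Their start sites are therefore 23.5 kb apart and point away from each other. Between them lies *HARBI1*, which begins 8.8 kb from *AMBRA1* and overlaps the start of *ATG13* on the map. Each window below runs from 250 bases before to 50 bases after the gene start and is read 5′ to 3′ on the gene's own strand. The first is chr11:46617303-46617602 on the plus strand, and its capitals mark the stretch to which the reverse primer anneals, 197 to 178 bases before the gene start. The second is chr11:46593974-46594273 on the minus strand, with no capitals. The third, for *ATG14*, is chr14:55411781-55412080 on the minus strand, and its capitals mark the only CACGTG among the windows of the members.
ATG13 promoter: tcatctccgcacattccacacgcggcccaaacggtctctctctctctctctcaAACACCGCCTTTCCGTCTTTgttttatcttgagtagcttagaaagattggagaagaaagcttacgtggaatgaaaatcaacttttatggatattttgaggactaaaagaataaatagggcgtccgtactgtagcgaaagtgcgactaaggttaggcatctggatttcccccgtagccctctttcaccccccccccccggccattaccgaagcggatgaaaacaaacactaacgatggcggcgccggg
AMBRA1 promoter: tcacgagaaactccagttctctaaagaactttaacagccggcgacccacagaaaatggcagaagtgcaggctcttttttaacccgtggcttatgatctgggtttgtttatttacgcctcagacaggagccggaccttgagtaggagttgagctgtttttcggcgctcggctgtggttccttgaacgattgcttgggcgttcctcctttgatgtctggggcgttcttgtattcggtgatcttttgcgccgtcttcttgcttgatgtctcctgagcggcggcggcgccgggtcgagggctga
ATG14 promoter: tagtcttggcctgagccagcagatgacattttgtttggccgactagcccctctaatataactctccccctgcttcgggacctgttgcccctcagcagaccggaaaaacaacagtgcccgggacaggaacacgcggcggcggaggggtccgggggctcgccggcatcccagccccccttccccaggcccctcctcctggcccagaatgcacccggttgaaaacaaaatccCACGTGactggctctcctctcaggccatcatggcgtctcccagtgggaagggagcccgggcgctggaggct
The primer pair that the study used at *ATG13* is shown to place the assayed region relative to the gene start.
ATG13 forward primer: ggctacctgcggttcatctc
ATG13 reverse primer: aaagacggaaaggcggtgtt
The last 7 bases of the forward primer match the first 7 bases of the *ATG13* window, so the assayed stretch starts upstream of the window.

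CACGTG, the E-box read by MITF and TFE factors among others, lies at chr14:55411846-55411851, 21 to 16 bases before the *ATG14* start. It was searched on both strands, where it reads the same, and occurs in 7.26% of the 35116 windows of this length. The related letters CATGTG, searched on both strands (11.1% of windows), matched no window of the members. CCAAT (34.6% of windows on either strand) matched once each in the *ATG13* and *HTT* windows. GGGCGG (45% of windows) matched once in the *HTT* window. The G and C content was 49.0% for *ATG13*, 53.0% for *AMBRA1*, 63.3% for *ATG14* and 73.0% for *HTT*, against a median of 58.7% over all windows. A second *AMBRA1* window, which starts inside the longer transcript, had 36.3% G and C and held the only TATAAA (11.5% of windows). The promoter table held 4 of the 6 members, without *RB1CC1* and *EPG5*. A match is a run of letters and not a measured binding site.

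Of the 6 genes, 3 were higher in UM-Cis after adjustment over all 14812 genes, namely *ATG13*, *HTT* and *AMBRA1*, each by more than 2-fold. The count of 3 of 6 stood beside a background of 5.91% of all genes called higher. These 3 genes were displayed by the study as changed on these same arrays, so the count is not independent evidence. None of the 6 was lower, beside 4.6% of all genes called lower, and all 6 differences were positive. *EPG5*, *RB1CC1* and *ATG14* were also higher on average, but did not pass. With the array label as a block, which sets same-labelled arrays of the lines against each other, all 6 passed as higher, beside 9.79% of all genes called higher and 8.4% called lower. That pairing rests on the data alone, since no source used here says what the labels mark. For array 1, deviations from the line means correlated at 0.170, below the 0.180 and 0.243 of arrays 1 and 2 crossed. The median difference of the 6 was 1.02 on the log2 scale, against −0.04 for all genes.

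**Figure D1:**
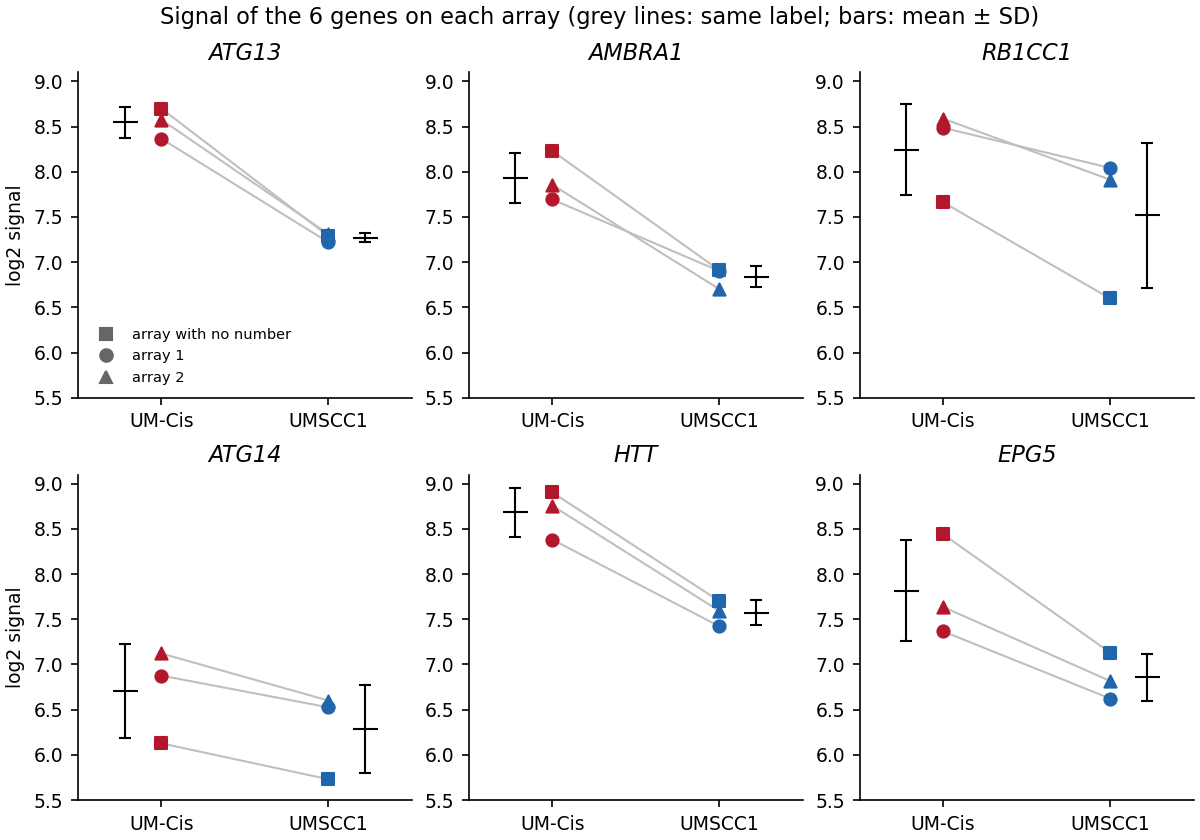
Log2 signal (vertical axis) of the 6 genes on each array, with UM-Cis left of UMSCC1, lines joining arrays of the same label, and bars for the mean ± SD of 3 arrays. The 3 UM-Cis arrays lie above all UMSCC1 arrays for *ATG13*, *AMBRA1*, *HTT* and *EPG5*, while *RB1CC1* and *ATG14* overlap although each joining line falls towards UMSCC1.

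Of the ULK1 complex, *ATG13* binds the kinase to its scaffold and is needed for its activity. Its log2 signal was 8.70, 8.37 and 8.58 in UM-Cis (no number, 1 and 2), against 7.29, 7.22 and 7.31 in UMSCC1. The groups did not overlap, and the lowest UM-Cis array exceeded the highest UMSCC1 array by 1.05. The mean was 8.55 ± 0.17 in UM-Cis and 7.27 ± 0.05 in UMSCC1 (SD, n = 3 each). The difference of 1.27 (SE 0.14, limma adjusted p = 0.00137) corresponds to 2.42-fold, with a 95% confidence interval of 1.95-fold to 3.0-fold. Only 1.32% of all genes had a larger increase. The call held with each array left out in turn.

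*RB1CC1*, the scaffold that holds the same complex together, had log2 signals of 7.66, 8.49 and 8.59 in UM-Cis, against 6.60, 8.04 and 7.91 in UMSCC1. The array with no number was the lowest of its line in both lines, and on that array UM-Cis lay below both numbered UMSCC1 arrays. The mean was 8.25 ± 0.51 in UM-Cis and 7.52 ± 0.80 in UMSCC1 (SD, n = 3 each). The difference of 0.73 (SE 0.40, 95% confidence interval −0.19 to 1.64) did not pass (limma adjusted p = 0.314). Between arrays of the same label it was 1.06 (no number), 0.44 (1) and 0.68 (2). With the block the SE was 0.15 and the adjusted p was 0.0219.

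The 3 other measured subunits of the ULK1 complex did not pass. *ULK1*, the kinase, averaged 6.11 in UM-Cis and 6.10 in UMSCC1 (limma adjusted p = 0.986). Its relative *ULK2* averaged 6.62 in UM-Cis and 6.69 in UMSCC1 (adjusted p = 0.816). *ATG101*, which pairs with the protein of *ATG13*, averaged 6.76 in UM-Cis and 6.78 in UMSCC1 (adjusted p = 0.967), and its second probe set gave a difference of −0.04. Of the 5 subunits 1 was called higher, and the median difference was 0.01. With the block, *ATG13* and *RB1CC1* were called higher and none of these 3.

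*AMBRA1* had log2 signals of 8.23, 7.69 and 7.86 in UM-Cis, against 6.91, 6.90 and 6.70 in UMSCC1. The groups did not overlap, with a gap of 0.78 between the lowest UM-Cis and the highest UMSCC1 array. The mean was 7.93 ± 0.28 in UM-Cis and 6.84 ± 0.12 in UMSCC1 (SD, n = 3 each). The difference was 1.09 (SE 0.17, limma adjusted p = 0.00579), or 2.13-fold (95% confidence interval 1.63 to 2.78). With the methods' t-test in place of limma, its adjusted p was 0.0591. Of the 6 genes only *ATG13* passed that test, beside 2.17% of all genes called higher by it.

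*ATG14*, the subunit that directs the PI3-kinase to autophagosome formation, was lowest on the array with no number in both lines. Its log2 signal was 6.13, 6.88 and 7.12 in UM-Cis, against 5.73, 6.53 and 6.60 in UMSCC1. The groups overlapped, since the UM-Cis array with no number lay below both numbered UMSCC1 arrays. The mean was 6.71 ± 0.52 in UM-Cis and 6.29 ± 0.48 in UMSCC1 (SD, n = 3 each). The difference of 0.42 (SE 0.31, 95% confidence interval −0.28 to 1.13) did not pass (limma adjusted p = 0.458). Same-labelled arrays differed by 0.40 (no number), 0.35 (1) and 0.52 (2), and with the block the SE was 0.11 and the adjusted p 0.0440.

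Among the 8 measured genes of the class III PI3-kinase complexes and their regulators, 1 was called higher (*AMBRA1*), 1 lower and 6 neither. The lower gene was *RUBCN*, Rubicon, which restrains autophagosome maturation through the same kinase. Its log2 signal was 7.10, 6.99 and 7.23 in UM-Cis, against 7.80, 7.68 and 7.64 in UMSCC1. The groups did not overlap. The difference was −0.60 (SE 0.13, limma adjusted p = 0.0226). It was lost when any one of the 4 numbered arrays was left out (adjusted p = 0.0526 to 0.0946), with the methods' t-test (0.0502), with all probe sets in the adjustment (0.0545) and with control genes at an equal median (−0.37, adjusted p = 0.506). *NRBF2*, a partner of *ATG14* in the kinase complex, had a difference of 0.49 (adjusted p = 0.118), and *SH3GLB1*, a membrane-curving regulator of the kinase, one of 0.42 (adjusted p = 0.109). *UVRAG*, which takes the place of *ATG14* in the complex at endosomes, had a difference of −0.09 (adjusted p = 0.729). *PIK3C3*, *PIK3R4* and *BECN1*, the core of the complex, were not analysed here.

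*HTT* had log2 signals of 8.90, 8.38 and 8.76 in UM-Cis, against 7.70, 7.42 and 7.59 in UMSCC1. The groups did not overlap, with a gap of 0.68. The mean was 8.68 ± 0.27 in UM-Cis and 7.57 ± 0.14 in UMSCC1 (SD, n = 3 each). The difference was 1.11 (SE 0.17, limma adjusted p = 0.00565), or 2.15-fold (95% confidence interval 1.65 to 2.82). The methods' t-test gave an adjusted p of 0.0591. Of the 7 other measured partners of huntingtin 0 passed with limma, with the block or with the methods' t-test, and 0 had an unadjusted p under 0.05. *HAP1*, which ties huntingtin to motor proteins, had a difference of 0.26 (adjusted p = 0.436), and *HIP1*, a clathrin adaptor, one of −0.20 (adjusted p = 0.511).

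*EPG5* had log2 signals of 8.44, 7.37 and 7.64 in UM-Cis, against 7.13, 6.62 and 6.82 in UMSCC1. The arrays with no number were the highest of both lines, and the groups were separated by only 0.24. The mean was 7.81 ± 0.56 in UM-Cis and 6.86 ± 0.26 in UMSCC1 (SD, n = 3 each). The difference of 0.96 (SE 0.27), or 1.94-fold (95% confidence interval 1.26 to 3.0), missed the threshold (limma adjusted p = 0.0641). Same-labelled arrays differed by 1.31 (no number), 0.74 (1) and 0.82 (2). With the block the SE was 0.15 and the adjusted p was 0.00913.

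**Figure D2:**
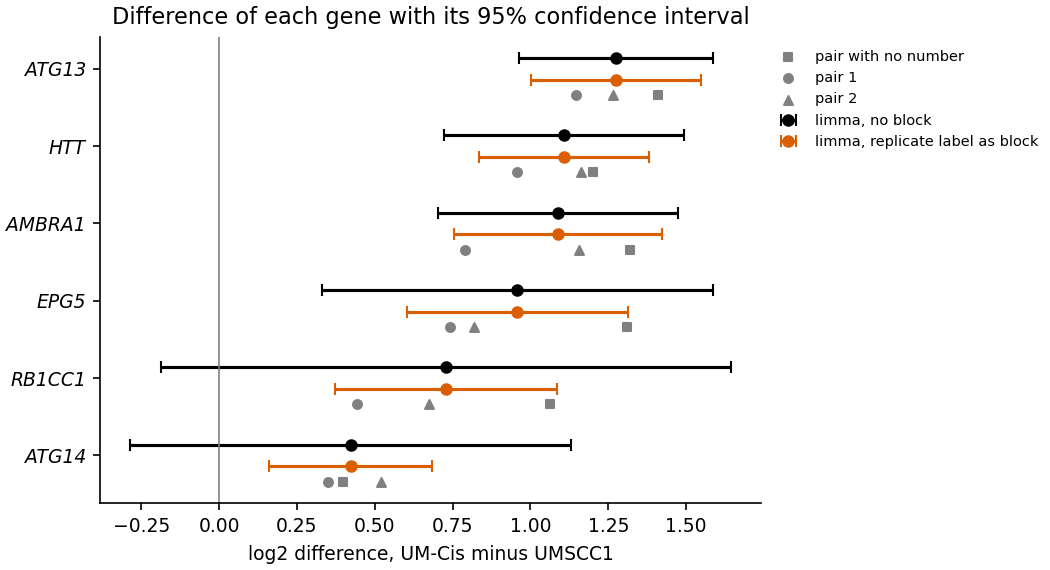
Log2 difference, UM-Cis minus UMSCC1 (horizontal axis), for the 6 genes, with 95% confidence intervals of the limma fit without and with the array label as a block. All 6 differences lie above 0, and only the intervals of *RB1CC1* and *ATG14* without the block cross it.

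None of the 12 measured genes of tethering and fusion with lysosomes passed, *EPG5* included, and their median difference was 0.14. At an unadjusted p under 0.05 there were 2 higher and 1 lower, which were the calls made with the block, against 0 with the methods' t-test. Over all 14812 genes, 1874 were higher and 1780 lower at that unadjusted threshold. *VPS39*, a subunit of the HOPS tether that also docks vesicles at lysosomes, came nearest to the threshold. Its log2 signal was 8.5, 8.55 and 8.84 in UM-Cis, against 7.75, 8.07 and 8.22 in UMSCC1. The difference was 0.62 (SE 0.17, limma adjusted p = 0.0550, and 0.0165 with the block). *VPS41*, another HOPS subunit, had a difference of −0.39 (adjusted p = 0.180, and 0.0489 with the block), the opposite sign. *STX17*, the SNARE of the autophagosome, had a difference of 0.29 (adjusted p = 0.260).

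The other genes of the pathway were counted by role. Of 36 measured genes in the lists of the ULK1 complex, the PI3-kinase, lipid transfer, tethering and upstream kinases, 2 were called higher, 1 lower and 33 neither. The share called higher was 5.56%, beside 5.91% of all genes. Without the members, 0 of the 31 others were higher and 1 was lower, with a median of 0.03. At an unadjusted p under 0.05, 4 of the 31 were higher and 3 lower, beside 1874 higher and 1780 lower of all 14812 genes. With the methods' t-test, 0 of the 31 were higher and 1 was lower. With the block, 2 of these 31 were higher and 2 lower. None of the 7 measured genes of membrane supply and phosphoinositide binding passed, also at an unadjusted p under 0.05, with the block or with the methods' t-test, and the nearest were *TMEM41B*, a lipid scramblase (0.31, adjusted p = 0.337), and *WDR45B*, a phosphoinositide-binding protein (0.28, adjusted p = 0.435). Of the 4 measured genes upstream, 0 passed with limma, and 1 was higher and 1 lower at an unadjusted p under 0.05. *MTOR*, the kinase that holds the ULK1 complex off, had a difference of 0.60 (adjusted p = 0.0949, and 0.0164 with the block). *TBK1*, a kinase of selective autophagy, had a difference of −0.35 (adjusted p = 0.108, and 0.0375 with the methods' t-test).

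**Figure D3:**
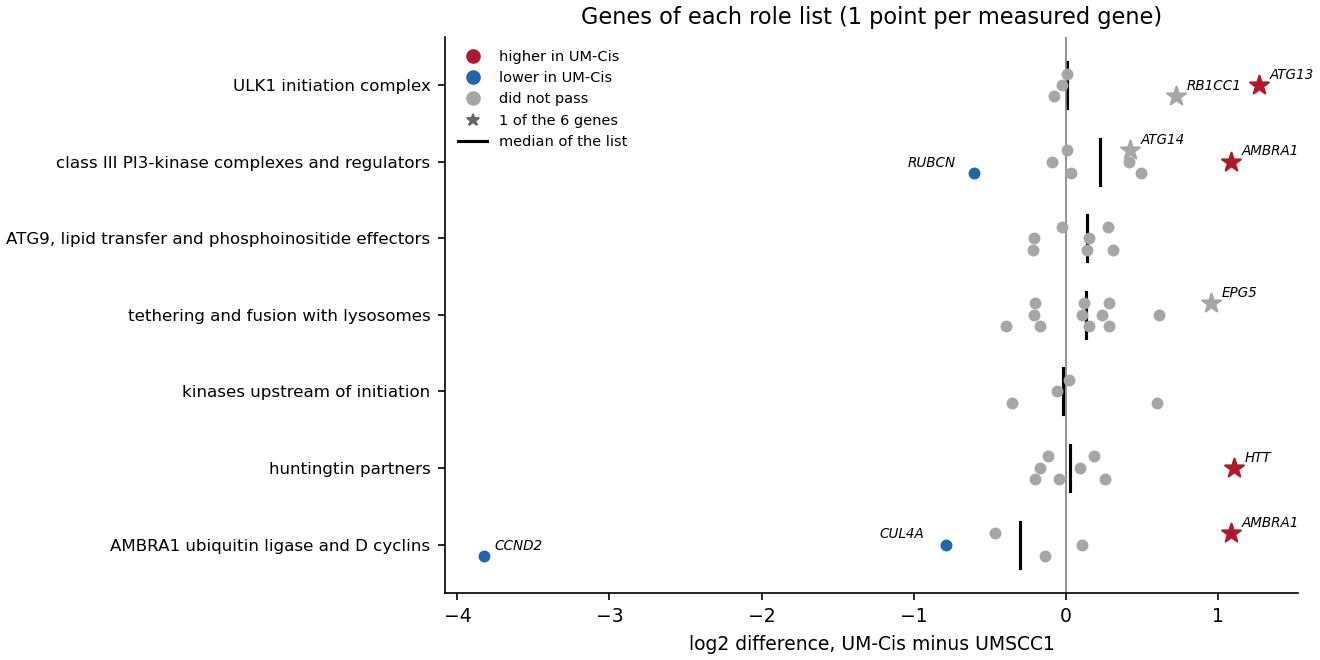
Log2 difference, UM-Cis minus UMSCC1 (horizontal axis), for each measured gene of the role lists (rows), with 1 point per gene, stars for the 6 genes and black lines for list medians. The stars lie to the right of the median in each list that has one, while the other points of the autophagy lists lie between −0.60 and 0.62.

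*AMBRA1* also acts in the CUL4 ubiquitin ligase, which marks the D cyclins for destruction, so the genes of that pathway were counted apart. Of 6 measured, *AMBRA1* was higher, 2 were lower and 3 did not pass. *CUL4A*, a scaffold of the ligase, had log2 signals of 8.75, 8.44 and 8.21 in UM-Cis, against 9.24, 9.21 and 9.31 in UMSCC1, a difference of −0.79 (SE 0.16, limma adjusted p = 0.0179). That call was lost without any one of the 4 numbered arrays (adjusted p = 0.0656 to 0.0745), with the methods' t-test (0.0868) and with control genes at an equal median (−0.55, adjusted p = 0.210). *CUL4B*, its close relative, had a difference of −0.13 (adjusted p = 0.683). The cyclin *CCND2* averaged 5.00 in UM-Cis and 8.83 in UMSCC1, a difference of −3.83 (adjusted p = 0.000387). Its other probe set gave −1.59 and did not pass (limma adjusted p = 0.0650 over all probe sets). *CCND1* averaged 9.42 in UM-Cis and 9.31 in UMSCC1 (adjusted p = 0.741), and *CCND3* had a difference of −0.46 (adjusted p = 0.106, and 0.0359 with the block). These are transcript levels, whereas the ligase acts on the cyclin proteins.

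The genes around *ATG13* and *AMBRA1* were read by position, as 10 measured genes on each side of each. Of the 22 different neighbours other than these 2 genes, 4 were called higher and 0 lower, or 18.2% beside 5.91% of all genes, and their median was 0.21. Next to *AMBRA1*, on the side away from *ATG13*, was *MDK*, the growth factor midkine, 12.6 kb away. Its log2 signal was 9.25, 9.13 and 8.86 in UM-Cis, against 7.94, 7.72 and 7.60 in UMSCC1, a difference of 1.32 (SE 0.16, limma adjusted p = 0.00193) that is close in size to that of *ATG13*. *HARBI1*, a transposase-derived gene, overlaps the start of *ATG13* on the map and had 7.23, 7.21 and 7.03 in UM-Cis, against 6.59, 6.35 and 6.27 in UMSCC1 (difference 0.75, adjusted p = 0.0131). *ARHGAP1*, a GTPase activator 2.6 kb beyond *ATG13*, had a difference of 0.66 (adjusted p = 0.0295), and *PHF21A*, a chromatin reader, one of 1.28 (adjusted p = 0.0381). *MDK* passed under each of the 17 alternatives run, like *ATG13*. The other 3 lost the call with some arrays left out, *PHF21A* with any array but the UM-Cis array with no number (adjusted p up to 0.130), *ARHGAP1* without either of 2 UM-Cis arrays (no number and 2) or either numbered UMSCC1 array (up to 0.111), and *HARBI1* without UM-Cis array 1 or either numbered UMSCC1 array (up to 0.0632). All 3 also missed it with the methods' t-test (*PHF21A* 0.201, *ARHGAP1* 0.0984 and *HARBI1* 0.0567), and *PHF21A* (0.0777) and *ARHGAP1* (0.0670) with all probe sets in the adjustment. Whether the probe sets of overlapping genes tell their strands apart is not given in the sources used here.

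In map order, 12 consecutive measured genes from *PHF21A* to *CKAP5*, a span of 917 kb, had positive differences. The run was extended from *ATG13* and *AMBRA1* for as long as the sign stayed positive, so its signs follow from that rule. Of its 12 genes, 6 were called higher, *ATG13* and *AMBRA1* among them. Of the 6647 genes with a positive difference in the whole series, 876 were called higher. This run was noticed after the values were seen. It includes *MIR4688* (0.28), *MIR3160-1*, which lies inside *AMBRA1* (0.39, adjusted p = 0.374), and *ZNF408* (0.61, adjusted p = 0.0616). Over all genes 44.9% of differences were positive. Beyond *CKAP5* the next measured genes were *LRP4-AS1* (−0.28) and *LRP4* (−0.42), so the sign changed within 182 kb of *ATG13*. DNA copy number and chromatin state were not measured on these arrays, and their part in the run was not tested. In its separate accessibility assay, the study reported less condensed chromatin in UM-Cis than in UMSCC1 at the autophagy promoters it tested.

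**Figure D4:**
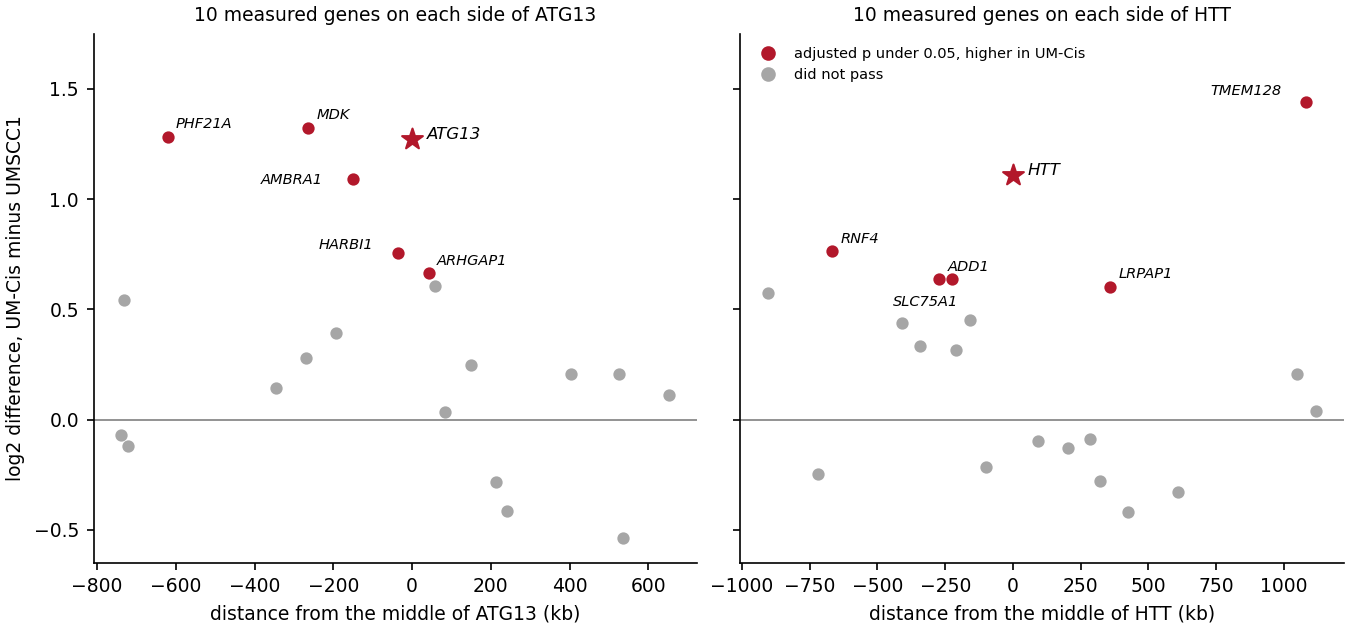
Log2 difference, UM-Cis minus UMSCC1 (vertical axis), of the 10 measured genes on each side of *ATG13* (left) and *HTT* (right) against the distance between gene middles in kb. The higher calls on the left lie in the span from *PHF21A* to *ARHGAP1*, while on the right the genes directly next to *HTT* lie below 0.

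Around *HTT* (chr4:3074681-3243960) the arrangement was another one. Of its 20 neighbours, 5 (25%) were called higher and 0 lower, beside 5.91% and 4.6% of all genes, and their median was 0.26. Its adjacent genes did not pass: *HTT-AS*, the antisense gene, had a difference of −0.22 (adjusted p = 0.558), *GRK4*, a receptor kinase, one of 0.45 (adjusted p = 0.103), *MSANTD1* one of −0.10 (adjusted p = 0.720) and *RGS12*, a regulator of G protein signalling, one of −0.13 (adjusted p = 0.604). The nearest higher genes were *SLC75A1* (0.64, adjusted p = 0.0234) at 139.9 kb and *ADD1*, a cytoskeletal protein (0.64, adjusted p = 0.0206), at 144.6 kb, and the farthest was *TMEM128* (1.44, adjusted p = 0.00388) at 991.6 kb. All 3 missed the threshold with the methods' t-test (0.0664, 0.0566 and 0.0622), and *SLC75A1* and *ADD1* also with some arrays left out (up to 0.0942 and 0.0876). On chromosome 18, *EPG5* (chr18:45800581-45967329) had 2 of 20 neighbours called higher and 1 lower, with 13 positive differences and a median of 0.24. The higher ones were *TPGS2* (0.59, adjusted p = 0.0250) and *IER3IP1* (0.53, adjusted p = 0.0460), and both lost the call with the methods' t-test (0.0531 and 0.0853) and with most single arrays left out. The lower one, *PSTPIP2*, a membrane-bending protein 16.2 kb away, averaged 4.37 in UM-Cis and 5.91 in UMSCC1 (difference −1.54, adjusted p = 0.000846). *SIGLEC15*, which overlaps *EPG5*, had a difference of −0.06 (adjusted p = 0.875), *SETBP1* one of 0.29 (adjusted p = 0.430) and *MIR4319* one of −0.48 (adjusted p = 0.145).

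Around *RB1CC1* (chr8:52622458-52714435) and *ATG14* (chr14:55366391-55411830), 1 of 20 neighbours each was higher and 0 lower, beside 5.91% and 4.6% of all genes. The genes next to *RB1CC1* were *ST18* (0.06, adjusted p = 0.855), *PCMTD1* (0.42, adjusted p = 0.203), *NPBWR1* (−0.12, adjusted p = 0.666) and *RGS20* (−0.09, adjusted p = 0.719). Next to *ATG14* were *FBXO34*, which overlaps it (0.06, adjusted p = 0.816), *MAPK1IP1L* (−0.42, adjusted p = 0.103), *TBPL2* (−0.09, adjusted p = 0.791) and *KTN1-AS1* (0.95, adjusted p = 0.00586). *KTN1-AS1* was the higher neighbour of *ATG14*, and *SNAI2*, a transcription factor 3701 kb away, that of *RB1CC1* (1.09).

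The 6 genes fell into different patterns over the arrays. *ATG13*, *AMBRA1* and *HTT* had close profiles, measured as the root-mean-square distance between mean-centred log2 signals over the 6 arrays. The distance was 0.12 between *ATG13* and *HTT*, 0.13 between *AMBRA1* and *HTT* and 0.15 between *ATG13* and *AMBRA1*. *HTT* was the 17th and *AMBRA1* the 37th closest of all genes to *ATG13*. *RB1CC1* and *ATG14* were 0.25 apart, with *ATG14* the 46th closest gene to *RB1CC1*. The farthest pair was *RB1CC1* and *EPG5*, at 0.86. These distances share the same 6 arrays and describe them only. They include the difference between the lines, so genes with a similar rise lie close by this measure.

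The arrays with no number were at the end of the range for 5 of the 6 genes in both lines. *AMBRA1*, *HTT* and *EPG5* were highest on that array in both lines, as were 26.8% of all genes. For *AMBRA1* in UMSCC1 that rank was nearly a tie, at 6.911 (no number) against 6.903 (array 1). *RB1CC1* and *ATG14* were lowest on it in both lines, as were 19.4% of all genes. *EPG5* lay 0.63 above its line's mean on that array in UM-Cis and 0.27 above in UMSCC1, and *RB1CC1* lay at −0.58 in UM-Cis and −0.92 in UMSCC1. *ATG13* was highest on the array with no number in UM-Cis but lay between the numbered arrays in UMSCC1, with deviations of 0.15 in UM-Cis and 0.02 in UMSCC1. Without both of these arrays, 5 of the 6 genes were called higher (9.36% of all genes), *ATG14* being the exception, with *EPG5* at 0.78 (adjusted p = 0.0157) and *RB1CC1* at 0.56 (adjusted p = 0.0259).

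The genes most like each member by the same distance, given with no statement on shared control, were *FAT4* and *REPS2* for *ATG13* (both 0.06), *ERP27* and *ETV4* for *AMBRA1* (0.08 and 0.09), and *USP40* and *SDCBP2-AS1* for *HTT* (both 0.08). For *EPG5* they were *PUDP* and *ENO1-AS1* (0.07 and 0.11), for *RB1CC1* *CCDC80* and *LINC02603* (0.12 and 0.13), and for *ATG14* *CA5BP1* and *CREBBP* (0.07 and 0.08). Among these, *FAT4*, an atypical cadherin, averaged 6.85 in UM-Cis and 5.52 in UMSCC1, and *CREBBP*, a histone acetyltransferase, 8.88 in UM-Cis and 8.57 in UMSCC1.

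Read by counts, all 3 same-labelled differences were positive for 6 of 6 genes, beside 24.8% of all genes. The arrays of the lines did not overlap for 4 of 6, beside 14.7% of all genes in that direction. The thresholds of the study, a 2-fold change together with p below 0.05, were applied here to the limma p before adjustment. They were met by 3 of 6 genes as higher (2.44% of all genes) and by 0 as lower (1.7%). The study does not say whether its own p-value was adjusted. A two-sided exact permutation test over the arrays gave p = 0.1 for *ATG13*, *AMBRA1*, *HTT* and *EPG5*, the smallest value that 3 against 3 arrays allow, 0.3 for *RB1CC1* and 0.4 for *ATG14*. *ATG13*, *AMBRA1* and *HTT* were displayed by the study as autophagy genes changed on these same arrays. Their direction, and the counts above that include them, are therefore not independent evidence.

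Over the whole series, array medians lay between 4.74 and 4.82, and 876 genes were called higher and 681 lower in UM-Cis, so that 56.3% of calls were higher. Scaling to an equal median of control genes, whose median difference was −0.30, made that share 82.6% and moved the median of all genes to 0.20. The mean signals of the 6 genes lay between the 79.1 and 93.2 percentiles of all probe sets. Of 15 squamous markers 6 were measured. *KRT5* averaged 4.68 in UM-Cis and 6.61 in UMSCC1 (adjusted p = 0.00910) and *KRT14* 4.97 in UM-Cis and 5.90 in UMSCC1, both near the array medians in UM-Cis and above them in UMSCC1. *KRT5* did not pass the methods' t-test (0.112). Of the 6 squamous markers 1 was called lower and 0 higher, 5 had a negative difference, and the median was −0.62. At an unadjusted p under 0.05, 4 of the 6 were lower, beside 1780 of all 14812 genes. *DSC3* had a difference of −0.60 (adjusted p = 0.0930) and *TRIM29* one of −0.64 (adjusted p = 0.104), and *SFN* averaged 11.11 in UM-Cis and 11.28 in UMSCC1. Of 11 measured markers of other cell types 1 was higher and 1 (*CD14*, −0.53, adjusted p = 0.0490, lost with any array left out, at 0.0539 to 0.161) lower, with signals of 2.22 to 10.06 in UM-Cis and 2.07 to 8.65 in UMSCC1. The highest was *CD68*, a lysosomal protein and macrophage marker (difference 1.41, adjusted p = 0.0115, 0.0547 without UMSCC1 array 1 and 0.112 with the methods' t-test), whose part in the results was not tested.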

How the data were processed

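The authors' log2 signals were used as deposited, 1 value per probe set and array. Quantile normalization is named in the study's text and RMA in the submitters' processing notes. Their versions and any filter were not given in the sources used here. No detection call was at hand, so signal over background is unknown, and precision is limited by the number of arrays. Of 44629 probe sets 15835 had 1 symbol, 0 several and 28794 none here. The brightest probe set stood for each gene, with no filter on dim ones.

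The lines were compared without covariates in limma (version 3.58.1, R 4.3.3, two-sided moderated test). Benjamini-Hochberg adjustment ran over 14812 genes at a threshold of 0.05. This step was tested on simulated data. Positions and promoter windows came from RefSeq (GRCh38.p14). Figures were drawn with matplotlib 3.10.9.

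Genes were named if they were members, listed genes that passed, the 2 others of a list with the smallest adjusted p, the 2 nearest on each side of a member, or the 2 closest in profile. Chosen after seeing their values, beyond this rule, were *ULK1*, *ATG101*, *UVRAG*, *STX17*, *VPS41*, *CCND1*, *SFN*, *PHF21A*, *CKAP5*, *LRP4*, *LRP4-AS1*, *SNAI2*, *SLC75A1*, *ADD1*, *TPGS2*, *IER3IP1*, *TRIM29* and *TMEM128*. The members and lists were chosen with earlier results of these data known.

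Same-labelled arrays deviated together from their line means, with correlations of 0.457 (no number), 0.170 (1) and 0.306 (2), and were treated as pairs in the block. The pairing rests on the data alone, and arrays 1 and 2 crossed gave 0.180 and 0.243. Alternatives were the methods' unpaired t-test, a trended and robust prior, array weights, the block, other normalizations, a filter on dim probe sets, other uses of probe sets, and leaving out arrays.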

Additional observations from a re-analysis of the deposited data

How the results depend on the processing

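The direction of all 6 members held under every one of the 17 alternatives run for each. *ATG13* passed under all of them. With each array left out in turn its difference was 1.20 to 1.36, that of *AMBRA1* 0.94 to 1.21 and that of *HTT* 1.00 to 1.26, and all 3 still passed, while *EPG5* (0.64 to 1.18), *RB1CC1* (0.27 to 1.02) and *ATG14* (0.14 to 0.71) did not. With the methods' t-test, *AMBRA1* (1.09, adjusted p = 0.0591) and *HTT* (1.11, adjusted p = 0.0591) did not pass, and 1 member did. With the replicate block, *EPG5* (0.96, adjusted p = 0.00913), *RB1CC1* (0.73, adjusted p = 0.0219) and *ATG14* (0.42, adjusted p = 0.0440) passed too, which made 6 members. *EPG5* also passed with array weights (0.86, adjusted p = 0.0126) and with an equal median of control genes (1.19, adjusted p = 0.0125). Without both arrays with no number, *EPG5* (0.78, adjusted p = 0.0157) and *RB1CC1* (0.56, adjusted p = 0.0259) passed, and 5 members did.

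Genes called higher (876) numbered 322 with the methods' t-test, 1594 with array weights, 1450 with the replicate block, 1387 without both arrays with no number and 433 to 848 with 1 array left out. Genes called lower (681) numbered 248 with the methods' t-test, 1508 with array weights, 1244 with the replicate block, 166 with an equal control median, 1301 without both arrays with no number and 324 to 738 with 1 array left out. Listed autophagy genes called higher (2) numbered 1 with the methods' t-test, 6 with array weights, 7 with the replicate block and 6 without both arrays with no number. Those called lower (1) numbered 3 with array weights, 2 with the replicate block, 0 with an equal control median and 0 to 1 with 1 array left out.

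Of the 72 other genes named, 25 had passed with limma. None of these changed sign, but 15 lost the call under some alternative, each of them with the methods' t-test, namely *ADD1*, *ARHGAP1*, *CD14*, *CD68*, *CUL4A*, *ETV4*, *HARBI1*, *IER3IP1*, *KRT5*, *PHF21A*, *PUDP*, *RUBCN*, *SLC75A1*, *TMEM128* and *TPGS2*. The sign turned under some alternative for 17 of the 31 that passed under no setting, 13 of them with an equal control median, and their values then stayed between −0.16 and 0.21. Those 17 were *ATG101*, *CCND1*, *CREBBP*, *CUL4B*, *HIP1*, *HTT-AS*, *MSANTD1*, *NPBWR1*, *RGS12*, *RGS20*, *SFN*, *SIGLEC15*, *ST18*, *TBPL2*, *ULK1*, *ULK2* and *UVRAG*. The causes of these changes were not tested.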
